A study of Rattus norvegicus with 22 samples.

Results

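The 9 genes described here encode metabotropic glutamate receptors and the Homer scaffolds that bind some of them, and they were chosen by gene symbol from the 17310 genes listed in the nucleus accumbens (NAc) count tables of rats that drank EtOH or water. Grm2, Grm3, Grm4, Grm5, Grm7 and Grm8 made up the 6 receptors, and Homer1, Homer2 and Homer3 the 3 scaffolds. RNA-seq had been run on the NAc core and shell of individual male outbred Wistar rats, each table being 1 rat. In experiment 1, 5 rats could choose at all times for 8 weeks between water and EtOH at 6% by volume (EtOH group), while 5 had water alone over the same 8 weeks (water group). In experiment 2, all 12 rats drank 6% EtOH beside water for 4 weeks, were given 3 weeks of gavage and then had 2 further weeks of access, so that both groups were drinkers. In 6 rats the gavage carried 2.5 g/kg EtOH 2 times a day, diluted to 30% by volume (EtOH gavage), and in the other 6 it was water (water gavage). Experiment 1 models voluntary drinking and experiment 2 adds forced intake in the EtOH gavage group, and the tissue was taken right after the bottles were removed.

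Metabotropic glutamate receptors are G protein-coupled receptors that adjust synaptic strength over seconds to minutes, in contrast to the fast ion channels gated by the same transmitter. The group I receptor encoded by Grm5 couples to Gq and raises calcium from internal stores, mostly in postsynaptic spines. Group II (Grm2, Grm3) and group III (Grm4, Grm7, Grm8) receptors couple to Gi/o, lower cyclic AMP and mainly restrain transmitter release, with Grm3 also made by astrocytes. Homer proteins bind a proline-rich motif in the tail of the group I receptors and tie them to the inositol trisphosphate receptor and to Shank. The Homer1 gene also gives a short, activity-induced form that lacks the joining domain, and counts per gene cannot separate it from the long forms.

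Grm5 and Homer1, a receptor and a scaffold that binds it, are the pair whose levels are set against each other across rats here, so the 250 bases upstream of their annotated start sites are printed, with the 1 E-box (CANNTG) in capitals. Both come from RefSeq on the GRCr8 build, whereas the counts were made on rn6, and both are on the plus strand.
Grm5, chr1:150733503-150733752: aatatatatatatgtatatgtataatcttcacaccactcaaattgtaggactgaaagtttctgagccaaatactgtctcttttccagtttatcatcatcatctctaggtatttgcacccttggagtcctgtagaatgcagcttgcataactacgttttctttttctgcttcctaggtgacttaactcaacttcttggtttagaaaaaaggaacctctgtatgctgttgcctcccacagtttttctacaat
Homer1, chr2:26278762-26279011: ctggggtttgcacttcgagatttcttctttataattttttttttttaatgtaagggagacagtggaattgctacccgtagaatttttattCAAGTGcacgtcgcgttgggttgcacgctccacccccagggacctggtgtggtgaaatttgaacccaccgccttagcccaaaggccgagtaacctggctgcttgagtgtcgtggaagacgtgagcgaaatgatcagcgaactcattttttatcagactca
The Grm5 window was AT-rich, with 36.4% GC, and the Homer1 window had 46.4%, against a median of 51.2% over 33469 RefSeq promoter windows. On either strand, the full cAMP response element TGACGTCA was found in 1.59% of those windows, its first 5 bases TGACG in 18.2% and the AP-1 site TGANTCA in 6.34%. None of these letters occurred in the windows of Grm5, Homer1, Grm7, Grm8 or Homer3, the 5 genes of the 9 with an entry. The E-box was found in 65.5% of all windows. It was absent from the Grm5 window, occurred 1 time each in Homer1, Grm7 and Grm8 and 2 times in Homer3, and in Homer1 it began at position -160 from the start site.

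Assigned reads ran from 2962291 to 5247386 per rat in experiment 1 and from 6713617 to 8765472 in experiment 2. Libraries were non-strand-specific in experiment 1 and strand-specific in experiment 2, so each experiment was tested alone. Reads counted to no gene feature, called reads outside genes here, were set against their sum with the assigned reads. They made up 48.43 to 51.14% of that sum in experiment 1 and 46.09 to 57.98% in experiment 2. The counting options are not given, so these reads may include some from introns. In experiment 2, 3 libraries had the most such reads, EtOH gavage rat 1 with 57.98%, EtOH gavage rat 2 with 56.37% and water gavage rat 1 with 54.5%. The biological coefficient of variation was 11.05% in experiment 1 and 31.29% in experiment 2. Striatal projection neuron markers were detected in every rat, with no marker of the 12 at 0 reads. Cortical excitatory neuron markers, summed over 6 genes, ran from 362 to 2743 normalised counts in experiment 1 and from 9.51 to 4009 in experiment 2, where 4 of the 6 were at 0 reads in 1 or more rats. In bulk tissue a lower level could come from fewer cells of a type or less RNA per cell, and these cannot be told apart.

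No receptor or Homer gene passed the test between EtOH and water drinkers in experiment 1, or between EtOH and water gavage in experiment 2 (quasi-likelihood test of edgeR, p adjusted by Benjamini-Hochberg over all tested genes). The test was run on genes above the median mean count, which 7 of the 9 passed in experiment 1 (Grm2 and Grm8 did not) and 6 in experiment 2 (Grm2, Homer2 and Homer3 did not). In experiment 1, 0 of 8655 genes passed an adjusted p of 0.05 (0%), 483 (5.58%) were under 0.05 unadjusted, and 73 (0.843%) had groups whose normalised counts did not overlap. None of the 7 genes met any of these 3 criteria. In experiment 2, 0 of 8655 genes passed (0%), 115 (1.33%) were under 0.05 unadjusted and 1 (0.0116%) had non-overlapping groups, and the 6 tested genes again gave 0 in each. Without the filter the shares at unadjusted p under 0.05 were 5.85% of 14024 genes and 2.03% of 14121, and those with non-overlapping groups 0.849% and 0.0283%, with 0 passing the adjusted test (0%) and none of the 9 genes in either. DESeq2 likewise called 0 of these genes and put 0 of the 9 under an unadjusted 0.05 in both experiments. In experiment 1 it gave no adjusted p for Grm2, Grm8 and Homer3, so these could not be called there. Leaving out the 3 libraries of experiment 2 put 114 of 8655 genes (1.32%) under 0.05 unadjusted, with none adjusted (0%) and none of the tested receptor and Homer genes among them.

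**Figure D1:**
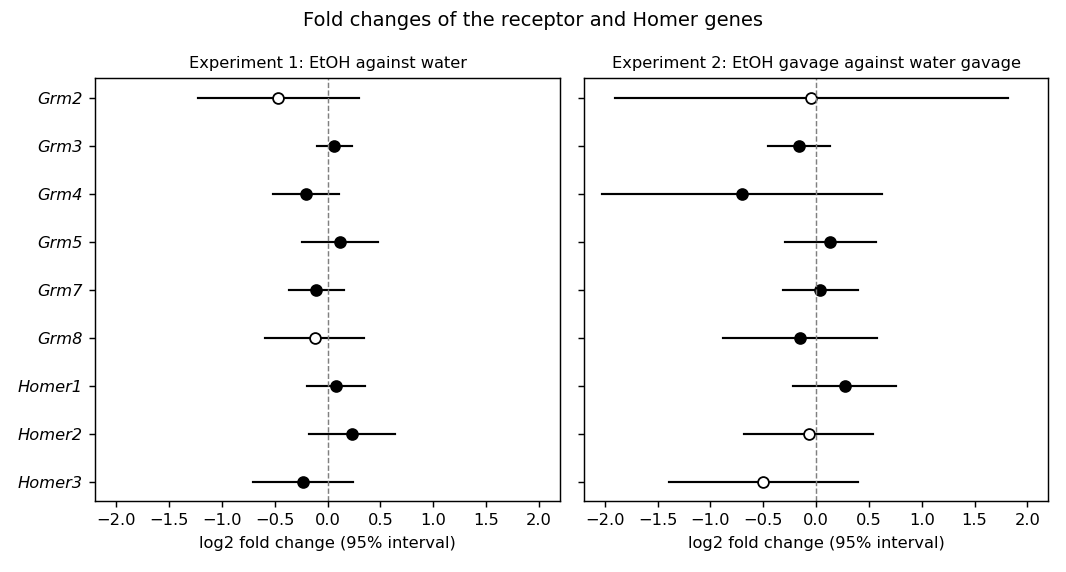
Log2 fold change (EtOH minus water, or EtOH gavage minus water gavage) with its 95% interval for each of the 9 genes in both experiments. Open circles mark genes under the expression filter, taken from the unfiltered fit, and every interval includes 0.

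Grm5, the group I receptor, was measured at 533, 570.3, 660.1, 816 and 619 normalised counts in the 5 water rats and at 642, 1094, 611, 569.6 and 551 in the 5 EtOH rats. All but EtOH rat 2 lay between 533 and 816, and the groups overlapped. The means were 639.7 ± 109.9 (SD, n = 5) and 693.6 ± 226.8 (SD, n = 5), a log2 fold change of 0.12 ± 0.17 (SE) with a 95% interval from -0.24 to 0.48, or a fold from 0.847 to 1.39 (edgeR, adjusted p = 0.974). Leaving out EtOH rat 2 turned the value to -0.11. In experiment 2 the lowest, median and highest values were 1246, 2069 and 2250 in the water gavage group and 1499, 1841 and 3059 in the EtOH gavage group. The highest 2 of the 12 rats were EtOH gavage rats 1 and 2, and the log2 fold change was 0.14 ± 0.20 (SE, interval -0.29 to 0.56, adjusted p = 0.735 in edgeR). Without the 3 libraries it was -0.11.

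Homer1, the scaffold that bridges Grm5 to calcium stores, stood at 543, 459, 649, 710.0 and 606 normalised counts in the water rats and 519, 835, 618, 611 and 546 in the EtOH rats. As for Grm5, EtOH rat 2 was the highest of the 10. The means were 594 ± 96.6 and 626 ± 124.5 (SD, n = 5 each), a log2 fold change of 0.078 ± 0.13 (SE, interval -0.20 to 0.35, adjusted p = 0.983 in edgeR), which became -0.050 without EtOH rat 2. In experiment 2 the water gavage values ran from 1594 to 2583 with a median of 1804, and the EtOH gavage values from 1558 to 3953 with a median of 2144. The 2 highest rats were again EtOH gavage rats 1 and 2 (3953 and 2973), and the log2 fold change of 0.27 ± 0.23 (SE, interval -0.21 to 0.76, adjusted p = 0.675 in edgeR) was 0.078 without EtOH gavage rat 1 and -0.0065 without the 3 libraries.

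**Figure D2:**
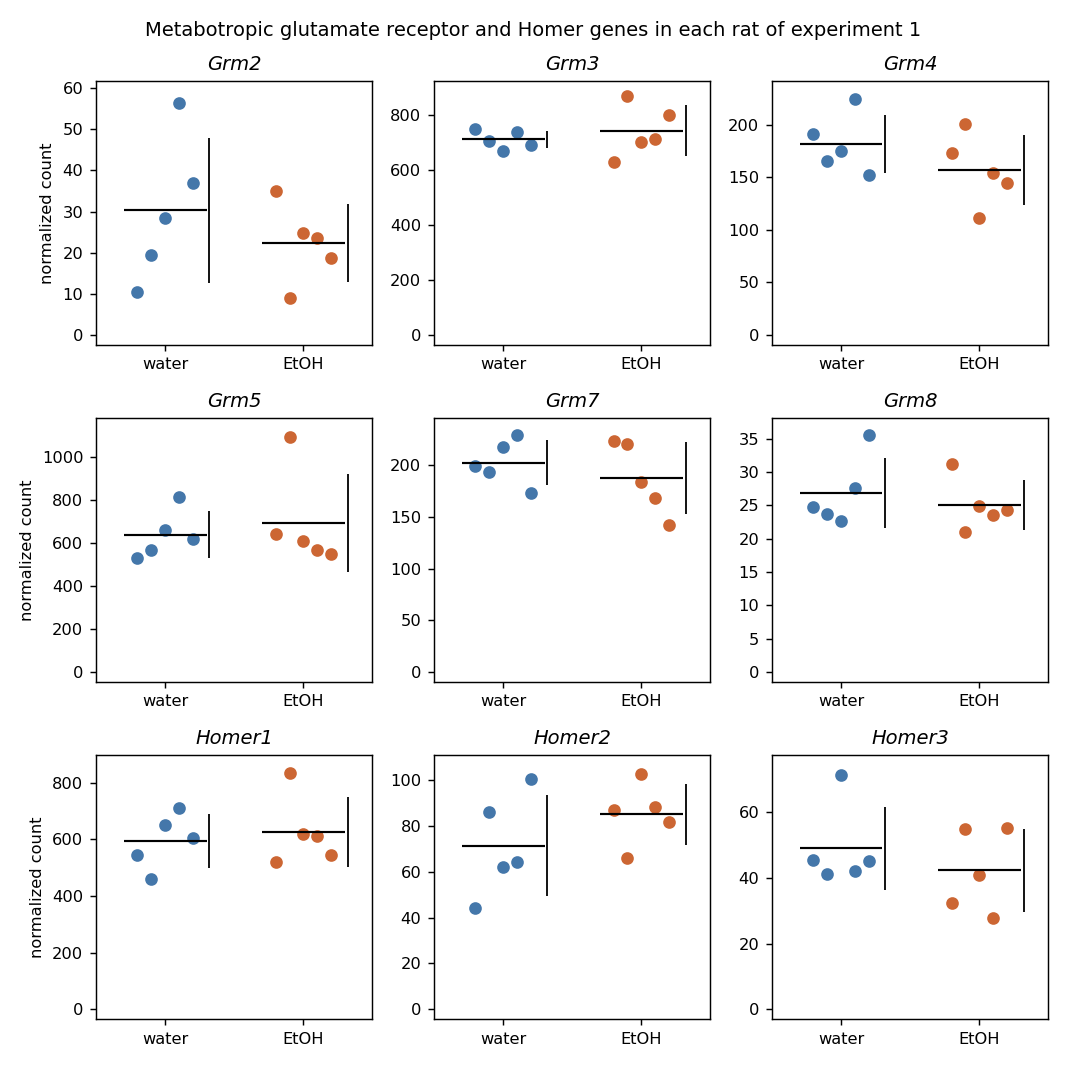
Normalised counts of the 9 genes in each rat of experiment 1, 5 rats per group. The horizontal line is the group mean and the vertical line its SD, and EtOH rat 2 stands above the other 9 rats for Grm5 (1094) and for Homer1 (835).

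Neither group II receptor gene passed the test. Grm3, which astrocytes make as well as neurons, varied little, with values from 669.6 to 746 in the water rats and from 629 to 866 in the EtOH rats. Its log2 fold change of 0.065 ± 0.079 (SE, interval -0.10 to 0.23, edgeR adjusted p = 0.964) was the most precise of the 9, limiting any change in experiment 1 to a fold between 0.930 and 1.18. In experiment 2, Grm3 was 1348 ± 219 after water gavage and 1204 ± 190 after EtOH gavage (SD, n = 6 each), a log2 fold change of -0.16 ± 0.14 (SE, interval -0.45 to 0.13, edgeR adjusted p = 0.675). Grm2, which mainly acts on nerve terminals, was near the detection limit, at 10.4, 19.5, 28.4, 56.4 and 37.0 in the water rats and 35.1, 9.003, 24.8, 23.6 and 18.8 in the EtOH rats. In experiment 2 it had 0 reads in water gavage rat 5 and in EtOH gavage rats 1 and 2, which allows up to 3 reads in each of these libraries. Its unfiltered log2 fold changes of -0.47 ± 0.36 and -0.046 ± 0.87 (SE) in experiments 1 and 2 had intervals from -1.23 to 0.29 and from -1.91 to 1.82 (edgeR, adjusted p = 0.868 and 0.983).

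Among the group III receptors, which sit at presynaptic release sites, Grm4 had the largest fitted difference of experiment 2 but also a wide spread. Its water gavage values were 22.3 at the lowest, 70.1 at the median and 202 at the highest, and its EtOH gavage values 11.0, 42.5 and 153. The groups overlapped over most of their range. The means were 88.7 ± 63.7 and 54.5 ± 52.4 (SD, n = 6 each), a log2 fold change of -0.70 ± 0.61 (SE, interval -2.02 to 0.62) or a fold of 0.615 (0.246 to 1.54), with an edgeR adjusted p of 0.675. Leaving out EtOH gavage rat 4, the highest of its group at 153, gave -1.34 (unadjusted p = 0.0343, adjusted p = 0.395 in edgeR). Leaving out water gavage rat 2, the highest of its group at 202, gave -0.28 (unadjusted p = 0.653). Without the 3 libraries with the most reads outside genes it was -0.45, and with that share as a covariate it turned to 0.19. In experiment 1 Grm4 was 191.5, 165.4, 175.1, 224 and 152 in the water rats and 173, 201, 112, 154 and 145.0 in the EtOH rats, a log2 fold change of -0.20 ± 0.14 (SE, interval -0.51 to 0.10, edgeR adjusted p = 0.914). In this comparison 2 EtOH rats were under the lowest water rat, and the value ran from -0.098 without EtOH rat 3 to -0.32 without EtOH rat 2 (unadjusted p = 0.0390, adjusted p = 0.633 in edgeR). It was -0.12 without water rat 4.

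Grm7, the broadly expressed low-affinity receptor of this group, was 173 to 229.7 in the water rats and 143 to 224 in the EtOH rats, a log2 fold change of -0.11 ± 0.12 (SE). In experiment 2 it ran from 474 to 778 after water gavage and from 481 to 856 after EtOH gavage, with a log2 fold change of 0.041 ± 0.17 (SE, interval -0.32 to 0.40). Its experiment 1 interval was -0.37 to 0.16, so the estimates differed in sign while both intervals included no change. Grm8, another presynaptic receptor, was under the filter in experiment 1 (21.0 to 35.5 over the 10 rats) and had unfiltered and tested log2 fold changes of -0.12 ± 0.22 and -0.15 ± 0.34 (SE) in experiments 1 and 2. In experiment 2 Grm8 reached 147 in water gavage rat 4 against 40.2 to 78.2 in the other 5 water gavage rats, and without that rat the log2 fold change was 0.16.

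The remaining scaffolds, Homer2 and Homer3, share the receptor-binding domain of Homer1. Homer2 was 44.3, 86.3, 62.0, 64.3 and 100.6 in the water rats and 87.1, 66.0, 103, 88.3 and 81.9 in the EtOH rats, a log2 fold change of 0.23 ± 0.19 (SE, interval -0.18 to 0.64, edgeR adjusted p = 0.932). The EtOH values were the less scattered, and the log2 fold change ran from 0.11 without water rat 1 to 0.40 without water rat 5 (unadjusted p = 0.0462, adjusted p = 0.575 in edgeR). It was 0.15 without EtOH rat 3. In experiment 2 Homer2 was under the filter, at 62.0 ± 19.0 and 57.7 ± 19.7 (SD, n = 6 each), with a log2 fold change of -0.071 ± 0.29 (SE). Homer3 was 41.1 to 71.5 in the water rats and 27.7 to 55.3 in the EtOH rats, where water rat 3 at 71.5 stood above the other 4 water rats at 41.1 to 45.6. The log2 fold change was -0.23 ± 0.22 (SE, interval -0.70 to 0.24, edgeR adjusted p = 0.945), and -0.037 without water rat 3. In experiment 2 the unfiltered log2 fold change of Homer3 was -0.50 ± 0.42 (SE, interval -1.39 to 0.39, edgeR adjusted p = 0.702), with 4 of 6 EtOH gavage rats under the lowest water gavage rat. It was -0.19 without the 3 libraries, -0.28 without EtOH gavage rat 1 and -0.83 without EtOH gavage rat 3.

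**Figure D3:**
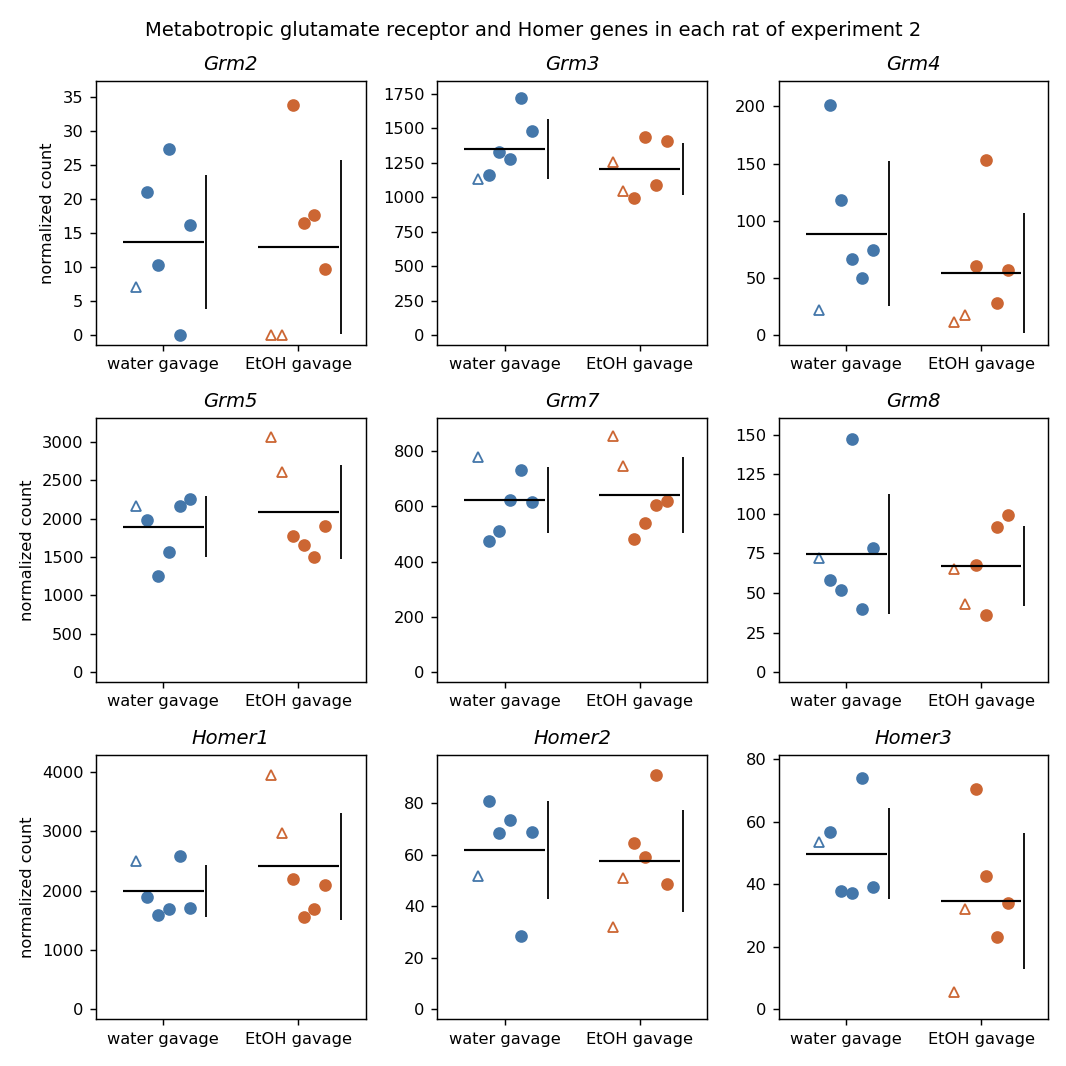
Normalised counts of the 9 genes in each rat of experiment 2, 6 rats per group, with mean and SD as lines. Open triangles mark the 3 libraries with the most reads outside genes, which hold the lowest Grm4 (11.0 to 22.3) and the highest Grm7 values (744.8 to 856).

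Exact 2-sided permutation tests of each gene on its own, over 252 splits of the 10 rats in experiment 1 and 924 splits of the 12 in experiment 2, gave p from 0.230 to 0.738 and from 0.136 to 0.825. The smallest p these designs allow are 0.00794 and 0.00216. Homer3 in experiment 2 passed only when EtOH gavage rat 3 was left out (exact p = 0.0173 over 462 splits).

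In experiment 2 several of these genes varied with the share of reads outside genes, a relation examined after the data were seen. The first principal component over all tested genes, their main axis of variation, held 74.01% of the variance in experiment 2. It was highest in the same 3 libraries, at 86.55, 48.73 and 36.88. The share of all genes related to the reads outside genes was not computed, so these relations are not shown to be particular to the genes described here. In EtOH gavage rats 1 and 2 and water gavage rat 1, Grm4 was 11.0 to 22.3 against 27.8 to 202 in the other 9 rats, and Grm7 was 744.8 to 856 against 474 to 733, without overlap in either case. The cut at 3 libraries was a choice along a continuous share, and the share of all genes that it splits was not computed. Water gavage rat 5 came next with 52.8% outside genes. It had the highest Grm7 (733) and Homer1 (2583) of the other 9, and a Grm4 of 49.7. Homer1 and Grm5 were high in the 3 libraries (2497 to 3953 and 2158 to 3059), with partial overlap with the other 9 (1557 to 2583 and 1246 to 2250). Over the 12 rats, with group means removed and 20 relations tested in all, the share outside genes was correlated with Grm7 (r = 0.906, rho = 0.811, permutation adjusted p = 0.00310 for r and 0.0223 for rho), with Grm4 (r = -0.884, rho = -0.853, adjusted p = 0.00310 and 0.0223) and, for r alone, with Homer1 (r = 0.885, rho = 0.741, adjusted p = 0.00567 and 0.0515). Grm5, Grm2 and Homer2 likewise passed for r alone (0.768, -0.800 and -0.742, permutation adjusted p = 0.0241 each). Grm3 had r = -0.0038. Without the 2 rats farthest from the median, r was 0.827 for Grm7, -0.799 for Grm4 and 0.745 for Homer1, and without the 3 libraries 0.740, -0.664 and 0.648. The same 3 libraries had summed microglia markers of 1314 to 1606 against 2097 to 3413 in the other 9 and endothelial markers of 1256 to 1518 against 1536 to 2722, while striatal projection neuron markers (40610 to 49110) lay inside the range of the others (37150 to 72380). The part of these features in the gene values was not tested. In experiment 1 none of the 9 genes was related to that share after adjustment, Grm5 being the nearest at r = -0.615 (permutation p = 0.0643, adjusted p = 0.143).

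**Figure D4:**
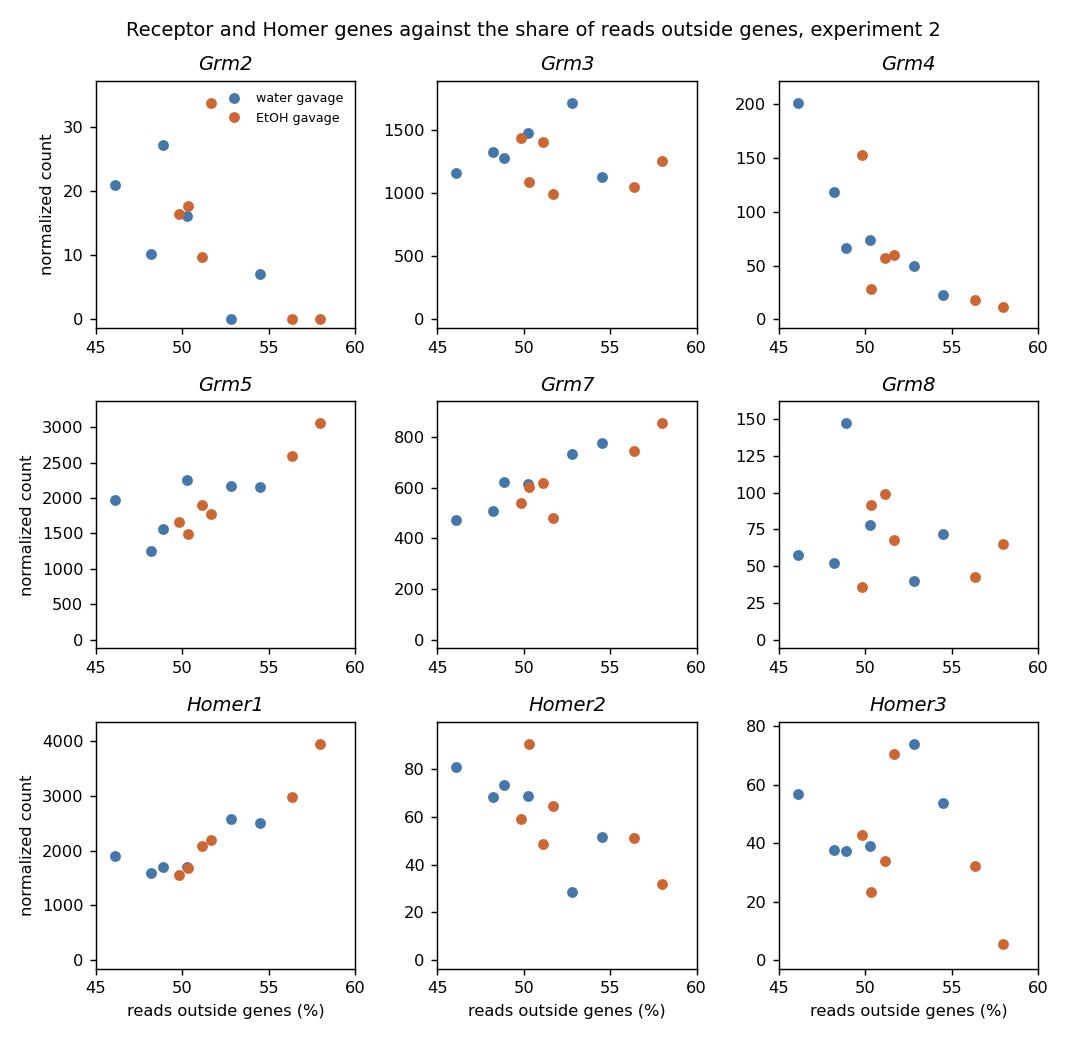
Normalised counts of each gene against the share of reads outside genes, as defined in the text, in the 12 rats of experiment 2, coloured by gavage. Grm7 and Homer1 rise and Grm4 falls with the share, and Grm3 shows no trend. In that order r was 0.906, 0.885, -0.884 and -0.0038 over the 12 rats. These r values are for log2 CPM and the share with group means removed, not for the plotted values.

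Grm5 and Homer1 were correlated across rats after removal of the group means. Their p-values were adjusted over 20 relations of both experiments, including those with the reads outside genes. The adjusted p of experiment 1 therefore depends on the low p-values of experiment 2, and adjustment within experiment 1 alone was not run. In experiment 1, r was 0.836 and rho 0.770 over 10 rats (permutation p = 0.00914 and 0.0172, adjusted p = 0.0241 and 0.0575), but without the 2 rats farthest from the median r was 0.421, so that relation rests on those rats. In experiment 2, r was 0.847 and rho 0.846 over 12 rats (permutation p = 0.00126 and 0.00274, adjusted p = 0.00630 and 0.0223), 0.769 without the 2 farthest rats and 0.598 without the 3 libraries. Among 8175 genes tested in both experiments, ordered by the lower of the 2 correlations, Homer1 was at place 27 for Grm5 and Grm5 at place 17 for Homer1. The 3 genes most like Grm5 were Syt10 (r = 0.951 and 0.950 in experiments 1 and 2), Ppp1r9a (0.955 and 0.939), which encodes a spine actin-binding protein, and Gsk3b (0.894 and 0.955), a kinase gene. Those most like Homer1 included Kcnq3 (0.914 and 0.954), a potassium channel gene, and Epha4 (0.901 and 0.928), an ephrin receptor gene. Grm4 went with Grm5 in experiment 1 (r = 0.652) and against it in experiment 2 (r = -0.59). These likenesses are descriptions over 10 and 12 rats that share library depth and composition.

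**Figure D5:**
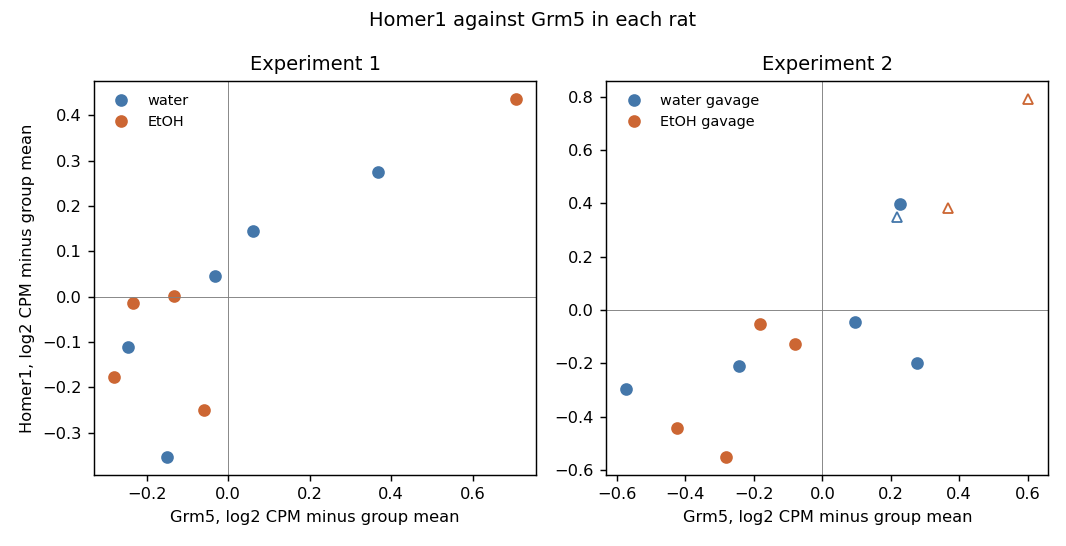
Group-centred log2 CPM of Grm5 against Homer1 in each rat of experiment 1 and experiment 2, with the libraries of most reads outside genes as open triangles. In experiment 1 r was 0.836 over 10 rats, and in experiment 2 it was 0.847 over 12. Without the 2 rats farthest from the median, r was 0.421 in experiment 1 and 0.769 in experiment 2.

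Homer1 was set against 6 activity-regulated genes, because its short form is induced by activity. In experiment 2 it was inversely related to Fos (r = -0.875, rho = -0.846), Nr4a1 (r = -0.866, rho = -0.825) and Arc (r = -0.844, rho = -0.797), each at a permutation adjusted p of 0.00537 for r over the 12 relations computed. Egr1 (r = -0.877) and Npas4 (r = -0.765) passed for r (permutation adjusted p = 0.00537 and 0.0265) but not for rho, and Junb at r = -0.707 had adjusted p = 0.0503. The Npas4 call was lost when any 1 of 6 rats was left out (water gavage rat 1 and EtOH gavage rats 1 to 5, permutation adjusted p = 0.0592 to 0.144), and Junb passed when any 1 of 4 rats was left out. Without the 2 rats farthest from the median, r kept its sign for all 6 (-0.854 to -0.500). Without the 3 libraries r was -0.481 for Arc, -0.525 for Egr1, -0.546 for Fos, -0.370 for Junb, 0.044 for Npas4 and -0.676 for Nr4a1, and none passed. In experiment 1 r ran from -0.300 to 0.148 with permutation adjusted p from 0.703 to 0.944. Those values rest on EtOH rat 2, since without it r was -0.673 for Arc, -0.350 for Egr1, -0.715 for Fos, -0.633 for Junb, -0.703 for Npas4 and -0.642 for Nr4a1. Fos then had a permutation p of 0.0277 and an adjusted p of 0.0475. That adjustment ran over the 12 relations of both experiments, so it depends on the low p-values of experiment 2. Adjustment within experiment 1 alone was not run. Whether the relations differ between the experiments was not tested. How many of all tested genes were related to Homer1 at this level was not computed. The relations are therefore not shown to be particular to the activity-regulated genes.

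The pathway around the receptors was taken from fixed lists, and no list held a gene that passed the adjusted test. Over all tested genes the median log2 fold change was -0.0012 in experiment 1 and 0.00088 in experiment 2. Of 21 tested genes of Gq signalling, the route from Grm5 to calcium, 11 had a higher and 10 a lower fitted level after EtOH drinking (median 0.0013), and in experiment 2 10 of 19 were higher with a median of 0.039. Gnaq, the G protein subunit itself, had log2 fold changes of 0.064 and 0.10, Plcb1 of 0.0013 and 0.059, and Itpr1, the calcium-store channel that Homer ties to the receptor, of 0.026 and -0.13 in experiments 1 and 2. In experiment 1, where 5.58% of all tested genes were under an unadjusted 0.05, so were 3 of the 21, Prkcd (0.75 ± 0.24 SE), Trpc4 (0.61 ± 0.24) and Gna11 (-0.24 ± 0.082), and none passed adjustment. In experiment 2 Prkcd was at -0.29 ± 0.34 (SE), Trpc4 at -0.29 ± 0.43 and Gna11 at -0.68 ± 0.40. Gna11 was the one of the 3 whose groups did not overlap in experiment 1, at 231.9 to 276 in the water rats and 189 to 224 in the EtOH rats. Its edgeR adjusted p was 0.823, and 0.843% of tested genes had such groups.

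For the Gi/o pathway, which serves the group II and III receptors, 10 of 15 genes were higher in EtOH rats (median 0.065) and 5 of 15 in EtOH gavage rats (median -0.15). Adcy1, an adenylyl cyclase, was at 0.48 ± 0.22 (SE) in experiment 1 (edgeR unadjusted p = 0.0454, adjusted p = 0.866) and at -0.42 ± 0.38 in experiment 2. Of the Homer-bound postsynaptic scaffold, 9 of 14 tested genes were higher in experiment 1 (median 0.018) and 3 of 13 in experiment 2 (median -0.52). Dlgap3, a bridge between Shank and the postsynaptic density, had the value -1.06 ± 0.61 (SE) in experiment 2 (edgeR adjusted p = 0.675) against 0.0059 in experiment 1, and Shank3 was at -0.62 ± 0.39 and 0.11 ± 0.076. The receptor regulators and partners had medians of -0.0068 and -0.27. Elfn1, a postsynaptic adhesion protein that recruits presynaptic group III receptors, was at -0.34 ± 0.14 (SE) in experiment 1 (edgeR unadjusted p = 0.0279, adjusted p = 0.866) and -0.60 ± 0.43 in experiment 2, and Rgs4, a regulator that shortens G protein signals, at -0.27 in both.

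Genes that clear or release glutamate did not pass the test, with 9 of 11 higher in experiment 1 (median 0.041) and 8 of 11 in experiment 2 (median 0.036), and with Slc1a2, the main astrocytic uptake carrier, at 0.0012 ± 0.063 (SE) in experiment 1 and 0.022 ± 0.17 in experiment 2, and Slc7a11, the cystine-glutamate exchanger, at 0.10 ± 0.14 and 0.29 ± 0.24. Of 13 tested activity-regulated genes 12 were higher in EtOH rats (median 0.17), none under an unadjusted 0.05, and of 11 in experiment 2, 3 were higher (median -0.20). Arc was at 0.20 and -0.67, Egr1 at 0.087 and -0.54 and Fos at 0.17 and -0.17, while Nr4a3 was at 0.49 ± 0.22 (SE) in experiment 2 with unadjusted p = 0.0425 (adjusted p = 0.675), where 1.33% of tested genes were under 0.05, and at 0.19 ± 0.25 in experiment 1. In experiment 1 striatal projection neuron markers were lower for 10 of 12 (median -0.24, Drd1 -0.50 ± 0.17 SE, against 0.060 ± 0.18 in experiment 2), with summed levels of 13690 to 23430 in water rats and 12290 to 24120 in EtOH rats, and 4 of 5 neuroblast markers were higher (median 0.39), Dcx at 0.39 ± 0.092 (SE) among them. The 4 were under an unadjusted 0.05, as were 5.58% of all tested genes, and none passed adjustment (edgeR, lowest adjusted p = 0.536). Dcx, Dlx1 and Cd24 are among the genes that the study lists with its lowest p-values for this comparison. Their low p here was thus known beforehand, and the 4 cannot be read against that share. Oligodendrocyte markers were higher for 5 of 9 in experiment 1 (median 0.0066) and 3 of 9 in experiment 2 (median -0.11), and 1 choroid plexus and ependymal marker, Foxj1, was tested (0.65 ± 0.28 SE, experiment 1). In experiment 2 Foxj1 was under the filter, with an unfiltered log2 fold change of -1.61 ± 0.94 (SE) at mean counts of 17.3 and 5.50. Markers of astrocytes, which make Grm3, summed to 17530 to 20720 in water rats and 17830 to 20670 in EtOH rats. Endothelial and pericyte markers were higher for 5 of 6 in experiment 1 (median 0.085, Flt1 0.21 ± 0.066 and Cldn5 0.20 ± 0.081 SE) and lower for 6 of 6 in experiment 2 (median -0.35). Microglia markers were lower for 5 of 8 (median -0.031) and 6 of 8 (median -0.42). In experiment 2 striatal projection neuron markers were higher for 5 of 12 and lower for 7 (median -0.27, -0.54 to 0.12). The lowest was Adora2a at -0.54 ± 0.24 (SE, edgeR unadjusted p = 0.0411, adjusted p = 0.675). EtOH gavage rats 1 and 2 were among the libraries with low summed endothelial and microglia markers. The part of these markers in the receptor values was not tested.

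Levels in CPM differed between the experiments for Grm4, at 29.4 to 59.2 in the 10 rats of experiment 1 and 1.45 to 26.6 in the 12 of experiment 2, and for Grm7, at 37.6 to 60.6 and 62.5 to 113, in both cases with no overlap. Grm3 overlapped (166 to 228 and 131 to 226), and so did Grm5 (140.5 to 288.5 and 164 to 403). Homer1 (121.1 to 220.2 and 205.2 to 520.9) and Homer2 (11.68 to 27.1 and 3.76 to 11.98) overlapped only at the edge of their ranges. Grm2, Grm8 and Homer3 overlapped as well. The share of all genes without overlap between the experiments was not computed, so the difference is not shown to be particular to Grm4 and Grm7. Library type, drinking schedule and sequencing run changed together between the experiments, and their parts cannot be told apart.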

How the data were processed

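RNA-seq was run by the authors on NAc tissue of 22 rats, 10 in experiment 1 and 12 in experiment 2, with poly(A) libraries that were non-strand-specific in experiment 1 and strand-specific in experiment 2. The deposited files hold raw counts per gene, which the authors made with TopHat2 2.0.13 and HTSeq (0.5.3p3 or 0.6.0) on rn6. The annotation and counting options are not given in the sources used here. Summary lines that name no gene stayed out of library sizes and tests. Reads outside genes are those counted to no gene feature, and they were 46.09 to 57.98% of their sum with the assigned reads.

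From these counts, genes above the median mean count were kept (43.6 and 66.4 normalised counts), which is the 50% filter of the study, and each experiment was fitted alone with edgeR 4.0.16 in R 4.3.3 (TMM factors, glmQLFit and glmQLFTest, Benjamini-Hochberg over 8655 genes). Genes under the filter were taken from an unfiltered fit. Normalised counts are counts divided by TMM-scaled library size and multiplied by its mean. Single genes were tested by exact permutation of log2 CPM (prior count 2), and relations across rats by 100000 permutations within groups. Alternatives were DESeq2 1.42.0, DESeq2 size factors, no filter or a minimum of 10 counts, limma 3.58.1, a covariate, a replicate block and leaving out each rat. The fit was tested on simulated counts. Each table is 1 rat, so p-values measure the spread between rats, and no replicate pair differed by less than sampling noise. Named genes were all 9 genes, fixed partner genes, up to 3 genes per list at an unadjusted p under 0.05, and the 3 genes most like Grm5 and Homer1, of which 1 is not reported here. The genes and lists were chosen with earlier results of these data known, and relations with the share of reads outside genes were added after seeing the data.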

Additional observations from a re-analysis of the deposited data

Results flagged for a closer look

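In a scan of the highest and lowest rat in 84 groups over 21 genes, chance would give about 4.2 values if the groups were independent. The genes were measured in the same rats, so that number is only a rough guide and no excess is shown. The scan found 8 values that stood apart from the rest of their group. Of these, 4 were the same rat, EtOH rat 2 of experiment 1, which was the highest of its group for Grm5 (1094 normalised counts, the others 551 to 642), Itpr1 (6247, the others 3574 to 4150), Shank3 (2711, the others 2301 to 2355) and Dlgap3 (1833, the others 1273 to 1403). In that rat summed striatal projection neuron markers were 24120 against 12290 to 23430 in the other 9, and the share of reads outside genes, 48.43%, was the lowest of the experiment. Their part in these values was not tested. Homer3 was 71.5 in water rat 3 of experiment 1, the others 41.1 to 45.6. In experiment 2 Grm4 was 153.2 in EtOH gavage rat 4 (the others 11.0 to 59.9), Grm8 was 147.2 in water gavage rat 4 (the others 40.2 to 78.2), and Arc was lowest at 73.9 in water gavage rat 1 (the others 582.5 to 770.0), 1 of the 3 libraries with the most reads outside genes.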

How the results depend on the processing

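No receptor or Homer gene was called under any alternative. Over 343 fold changes under the alternatives and with single rats left out, 314 kept their sign and 29 turned, and the lowest adjusted p was 0.318. All changes of sign under alternatives other than leaving out a rat were in experiment 2. With the share of reads outside genes as a covariate the log2 fold changes were 0.82 for Grm2, 0.19 for Grm4, -0.14 for Grm5, -0.18 for Grm7, -0.094 for Homer1 and 0.22 for Homer2. Without the 3 libraries with the most such reads, chosen after seeing the data, they were 0.38 for Grm2, -0.11 for Grm5, -0.077 for Grm7, -0.0065 for Homer1 and 0.051 for Homer2. In that setting the relation of Homer1 was -0.481 with Arc, -0.525 with Egr1, -0.546 with Fos, 0.044 with Npas4 and -0.676 with Nr4a1. The cause was not tested.

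With single rats left out, the number of these genes at an unadjusted p under 0.05 ran from 0 to 1 in each experiment, and the number at an exact p under 0.05 from 0 to 1 in experiment 2. In experiment 1 the log2 fold change ran from -0.11 to 0.22 for Grm5, -0.21 to 0.016 for Grm8, -0.050 to 0.15 for Homer1 and -0.35 to -0.037 for Homer3. In experiment 2 it ran from -0.59 to 0.28 for Grm2, -0.0032 to 0.20 for Grm5, -0.056 to 0.12 for Grm7, -0.30 to 0.16 for Grm8, -0.25 to 0.043 for Homer2, -1.34 to -0.28 for Grm4, 0.078 to 0.37 for Homer1 and -0.83 to -0.28 for Homer3. The relation of Homer1 in experiment 1 ran from -0.673 to 0.057 with Arc, -0.350 to 0.338 with Egr1, -0.715 to -0.072 with Fos, -0.633 to 0.327 with Junb and -0.642 to 0.304 with Nr4a1, and in experiment 2 from -0.766 to -0.621 with Junb and -0.938 to -0.600 with Npas4.

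With the replicate number as a block, 0 of the genes passed in either experiment, and the log2 fold changes were 0.082 for Grm5 in experiment 1 and -0.84 for Grm4 and 0.22 for Homer1 in experiment 2. The numbers were not taken to pair the rats: same-numbered rats had correlations of -0.125 to 0.144 in experiment 1 and -0.759 to 0.835 in experiment 2, and not every rat correlated best with its own number. Levels per kilobase were not run, since transcript lengths were not used here. The lowest counts were those of Grm2, Grm8 in experiment 1 and Homer3, at under 50 mean normalised counts.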
